A study of Homo sapiens with 6 samples.

Results

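The SLC25 genes encode the solute carrier family 25, the largest family of transport proteins of the inner mitochondrial membrane. All protein-coding genes whose symbol is SLC25A followed by a number were taken, which gave 48 of the 19951 protein-coding genes and of the 58735 genes in the deposited table. They were grouped by the substrate each carrier is known for, and no measured value entered the choice. RNA was measured in A549, an established line of human lung adenocarcinoma cells, in 3 libraries named Vector and 3 named OE_GPX3. Vector cells have WT, and OE_GPX3 cells OE, as both genotype and treatment in the labels. The sources used here give no construct, promoter, selection, clone or time of culture for either group. GPX3, the secreted glutathione peroxidase that the second group overexpresses, had counts of 638, 658 and 648 in Vector against 23372, 17470 and 20984 in OE_GPX3. Every OE_GPX3 library was therefore far above every Vector library for the targeted gene.

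SLC25 carriers move nucleotides, phosphate, organic acids, amino acids and cofactors between the cytosol and the mitochondrial matrix, usually by exchange. Most have a threefold-repeated fold, in which each repeat carries a short signature whose charged residues form salt bridges that close the carrier on the matrix side. In tumour cells they are known for ATP export, citrate export for lipid synthesis, the malate-aspartate shuttle and the import of glutathione, which mitochondria do not make.

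The signature is shown at the level of the coding sequence, because it is what these genes share beyond their name and because its letters show how far near relatives and the genes with the largest differences diverge. The pattern searched, in frame on the coding strand with overlaps allowed, was a proline codon (CCN), any codon, a codon for aspartate or glutamate, any pair of codons, and a codon for lysine (AAA or AAG) or arginine (CGN as well as AGA or AGG). At least 1 match was found in 44 of the 48 genes (91.7%), and at least 3 in 30 (62.5%). Among 19466 other protein-coding genes the shares were 29.8% and 2.59%. These other genes were longer, with a median of 1305 coding bases against 945. No match was found in SLC25A46, SLC25A51, SLC25A52 or SLC25A53. The sequences are from GENCODE release 29 transcripts (hg38), 5′ to 3′. The capitals mark the codons of the match nearest the start codon, and the lower-case letters are the 15 spliced coding bases on either side.
SLC25A5: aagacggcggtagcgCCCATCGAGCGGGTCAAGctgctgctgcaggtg
SLC25A6: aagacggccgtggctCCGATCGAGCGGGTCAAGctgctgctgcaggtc
SLC25A4: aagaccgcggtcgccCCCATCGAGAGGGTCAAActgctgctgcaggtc
SLC25A1: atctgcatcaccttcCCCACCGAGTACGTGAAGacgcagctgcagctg
SLC25A10: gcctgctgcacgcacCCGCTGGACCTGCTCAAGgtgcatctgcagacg
SLC25A39: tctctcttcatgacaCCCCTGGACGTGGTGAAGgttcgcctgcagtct
SLC25A40: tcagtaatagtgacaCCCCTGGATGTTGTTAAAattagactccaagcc
SLC25A36: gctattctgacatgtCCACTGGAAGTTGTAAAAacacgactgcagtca

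The capitals of SLC25A5 lie at chrX:119468597-119468614 on the plus strand, in exon 1. Those of SLC25A10 lie at chr17:81712502-81712519 on the plus strand, also in exon 1, and those of SLC25A1 at chr22:19178185-19178202 on the minus strand, in exon 2. Those of SLC25A36 lie at chr3:140956561-140956578 on the plus strand, in exon 2. The glutathione importers have theirs at chr17:44323321-44323338 (SLC25A39, exon 3) and chr7:87856329-87856346 (SLC25A40, exon 4), both on the minus strand. Over the windows shown, G and C made up 66.7% of the letters in SLC25A5, SLC25A6 and SLC25A10 and 64.6% in SLC25A4. The share was 58.3% in SLC25A1, 56.25% in SLC25A39, 43.8% in SLC25A36 and 41.7% in SLC25A40. The ADP/ATP carriers were the near relatives with most reads. SLC25A5 and SLC25A6 had 78.7% identical coding bases with a longest shared run of 29 bases, and SLC25A4 shared 77.2% and 77.9% with them. SLC25A51 and SLC25A52 had 97.6% identity and a shared run of 169 bases, so reads of these genes may not be separable.

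Levels are given as FPKM, fragments per kilobase of gene length, scaled by the authors to the depth of the library, which is the scale used here to compare genes. On this scale ADP/ATP carriers dominated the family. SLC25A5 (ANT2), an ADP/ATP carrier that exports ATP from the matrix, was the most abundant, with 453, 485 and 501 FPKM in Vector and 469, 512 and 494 in OE_GPX3. SLC25A6 (ANT3), which carries the same nucleotides, followed with 321, 333 and 380 FPKM in Vector and 313, 395 and 402 in OE_GPX3. The groups overlapped for both, and in FPKM the SLC25A5 libraries lay above all SLC25A6 libraries. In counts, before division by 1500 bases for SLC25A5 and 2164 for SLC25A6, the order varied between libraries. SLC25A5 had 12234, 14315 and 12368 counts in Vector, and SLC25A6 had 12528, 14178 and 13545. SLC25A39, a glutathione importer, was next with 82.3, 90.8 and 96.2 FPKM in Vector and 94.0, 109 and 113 in OE_GPX3. SLC25A3, the phosphate carrier that supplies ATP synthase, had 73.7, 74.0 and 77.3 FPKM against 77.1, 85.6 and 79.4. The order of SLC25A39 and SLC25A3 was the same in every library. It rests on the length by which the deposited values are divided, 8896 bases for SLC25A3 and 3526 for SLC25A39, whereas SLC25A5 was divided by 1500.

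**Figure D1:**
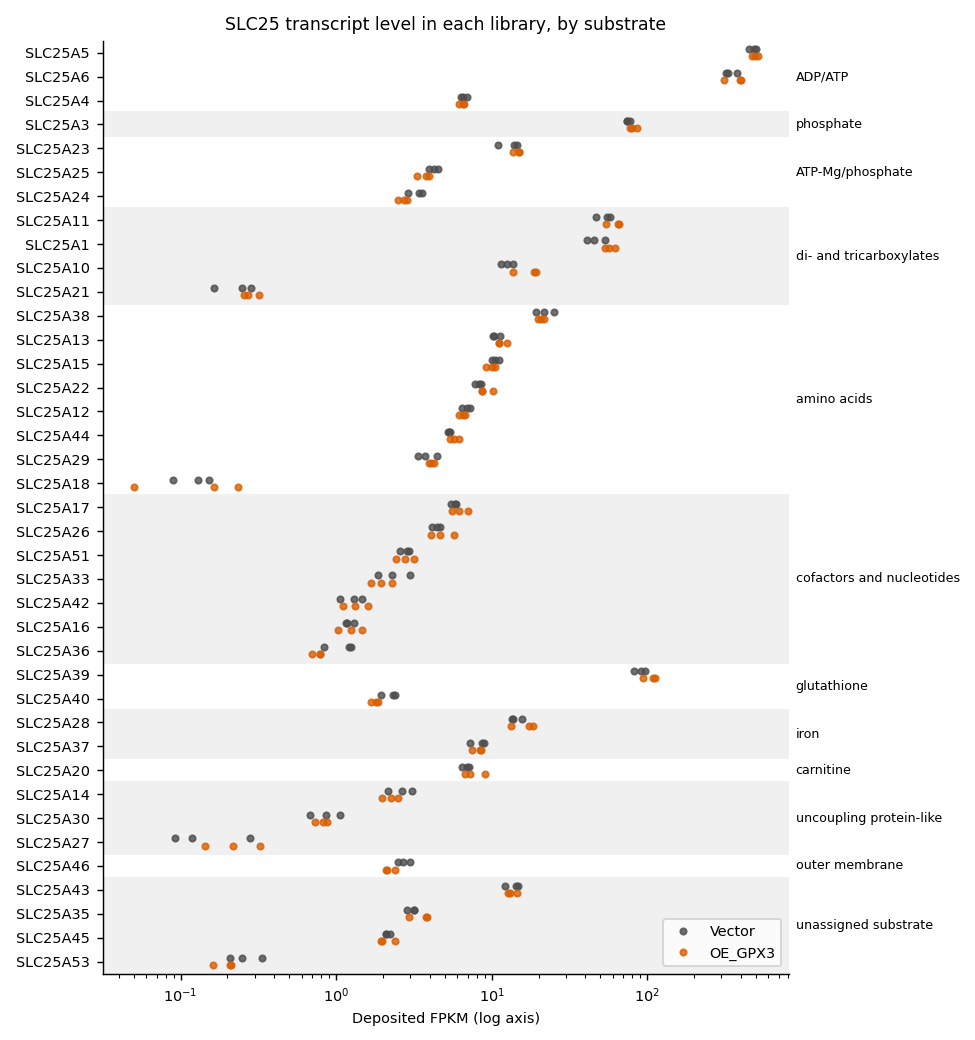
Deposited FPKM of 39 of the 40 tested SLC25 genes on a log axis, 1 point per library (Vector grey, OE_GPX3 orange), grouped by substrate and ordered by level within a group. SLC25A5 and SLC25A6 stand well above the rest, most other genes lie between 1 and 100, and the groups lie close together for nearly every gene.

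The 3 genes with the highest mean FPKM held 71.5% of the summed FPKM of the family in Vector and 71.0% in OE_GPX3. The median gene had 3.56 FPKM in Vector. Shares of summed FPKM rest on the gene lengths as well. In counts SLC25A3, with 11810, 12956 and 11316 in Vector, was above SLC25A39, with 5229, 6301 and 5579. In all 6 libraries 34 of the 48 genes were above 1 FPKM. The organic acid carriers came after the phosphate carrier. SLC25A11, which exchanges oxoglutarate for malate in the malate-aspartate shuttle, had 47.2, 55.1 and 57.3 FPKM in Vector and 53.9, 65.4 and 65.1 in OE_GPX3. SLC25A1, the citrate carrier, had 45.5, 41.0 and 53.6 FPKM against 53.2, 61.9 and 57.2. The ranges of the 2 genes overlapped, but within every library SLC25A11 was the higher. SLC25A10, which exchanges malate or succinate for phosphate, was lower, at 12.6 ± 1.16 FPKM in Vector (SD, n = 3). The heart and muscle form of the ADP/ATP carrier, SLC25A4 (ANT1), was at 6.65 ± 0.302 FPKM in Vector (SD, n = 3) and 6.46 ± 0.232 in OE_GPX3 (SD, n = 3).

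Among the amino acid carriers the highest was SLC25A38, which imports glycine for heme synthesis, with 19.3, 25.1 and 21.7 FPKM in Vector and 19.8, 20.6 and 21.6 in OE_GPX3. The aspartate/glutamate exchangers of the malate-aspartate shuttle were both present, SLC25A13 (citrin) at 10.6 ± 0.638 FPKM and SLC25A12 (aralar) at 6.87 ± 0.399 in Vector (SD, n = 3). The glutamate carrier SLC25A22 had 8.24 ± 0.374 FPKM in Vector (SD, n = 3) and its relative SLC25A18 only 0.124 ± 0.0315 (SD, n = 3). The ornithine carrier SLC25A15 had 10.5 ± 0.552 FPKM in Vector (SD, n = 3), and its close copy SLC25A2, whose coding sequence is 87.6% identical, was at 0 counts in all libraries. In the glutamate and ornithine pairs 1 gene therefore held nearly all of the summed FPKM. In the aspartate/glutamate pair SLC25A13 held a mean of 60.7% in Vector.

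Iron enters through the mitoferrins. SLC25A28 (mitoferrin 2) had 13.7, 15.8 and 13.6 FPKM in Vector and 13.3, 18.3 and 17.3 in OE_GPX3, and SLC25A37 (mitoferrin 1) had 8.27 ± 0.911 FPKM in Vector (SD, n = 3) and 8.14 ± 0.537 in OE_GPX3 (SD, n = 3). In FPKM the mitoferrin ranges did not meet. This order rests on gene length, 1755 bases for SLC25A28 and 8147 for SLC25A37. In counts, which are not divided by length, SLC25A37 was the higher in every library. It had 1317, 1380 and 971 counts in Vector, against 433, 544 and 392 for SLC25A28. SLC25A20, which exchanges acylcarnitine for carnitine in fatty acid oxidation, had 7.20, 6.46 and 6.93 FPKM in Vector and 6.74, 9.10 and 7.27 in OE_GPX3. SLC25A23, a calcium-regulated ATP-Mg/phosphate exchanger, had 13.9, 10.9 and 14.6 FPKM against 15.0, 13.7 and 15.0. SLC25A43, whose substrate is not settled, had 14.8, 14.4 and 12.1 FPKM against 14.4, 13.1 and 12.8. None of these separated the groups. Of the cofactor carriers the highest was SLC25A17, a peroxisomal carrier, with 5.90, 5.44 and 5.80 FPKM in Vector and 6.12, 7.03 and 5.55 in OE_GPX3. SLC25A51, the NAD+ importer, had 2.80 ± 0.208 FPKM in Vector (SD, n = 3), and its near-identical copy SLC25A52 was at 0 counts in all libraries.

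Too low to test were 8 genes, namely SLC25A2, SLC25A31, SLC25A32, SLC25A34, SLC25A41, SLC25A47, SLC25A48 and SLC25A52. SLC25A31, the ADP/ATP carrier of testis, had 2 counts in Vector replicate 2 and 0 in the other libraries, and SLC25A47, a liver form, had 1 count in OE_GPX3 replicate 1 and 0 elsewhere. SLC25A48 had 1 or 2 counts in each library, SLC25A34 1 to 6 and SLC25A41, an ATP-Mg/phosphate exchanger, 6 to 13. SLC25A32, the folate and FAD carrier, had 3, 3 and 1 counts in Vector and 0, 9 and 1 in OE_GPX3. Of its exon bases 69.7% also belong to AC012213.5, a gene on the same strand with 0 counts in every library, and 11.1% to DCAF13 on the other strand. What such overlap does to the count of SLC25A32 was not tested.

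No SLC25 gene passed the test between OE_GPX3 and Vector. Differences were tested on counts with edgeR's quasi-likelihood test and Benjamini-Hochberg adjustment over all 14458 genes with enough counts, of which 0.263% were called at an adjusted p under 0.05. Of the 40 SLC25 genes tested 0 were called, with a lowest adjusted p of 0.118, and 0 were called by DESeq2 among the 29 with an adjusted p (1.33% of all genes) or by limma on log2(FPKM + 1) among 34 (0.0925% of all genes). An unadjusted p under 0.05 was found for 7 of the 40 (17.5%), against 14.6% of all genes tested. By DESeq2 it was found for 6 of 46, a larger share than the 6.73% of all 26839 genes, which include many of few counts. By limma it was found for 2 of 34, a smaller share than the 13.9% of all genes. The 3 libraries of each group did not overlap for 7 of the 40 (17.5%), against 18.5% of all genes. The 7 genes with an unadjusted p under 0.05 by edgeR and the 7 without overlap are each a share near the background. The log2 fold change of OE_GPX3 over Vector was below 0 for 17 of the 40 (42.5%), against 52.6% of all genes, and its median was 0.04, against -0.02 over all genes. The 95% confidence interval of a log2 fold change reached 0.27 to either side of the value for the median SLC25 gene. A call needs more than an interval clear of 0, because p is adjusted over all genes. On simulated data 53 of 67 genes changed 1.5-fold were called. Those data had 198 calls, against 38 here, with all changed genes above 5 CPM and no GC trend. The share called there therefore need not hold for the SLC25 genes. Because no label ties a replicate to a culture of its own, the spread that these p values measure may be technical.

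**Figure D2:**
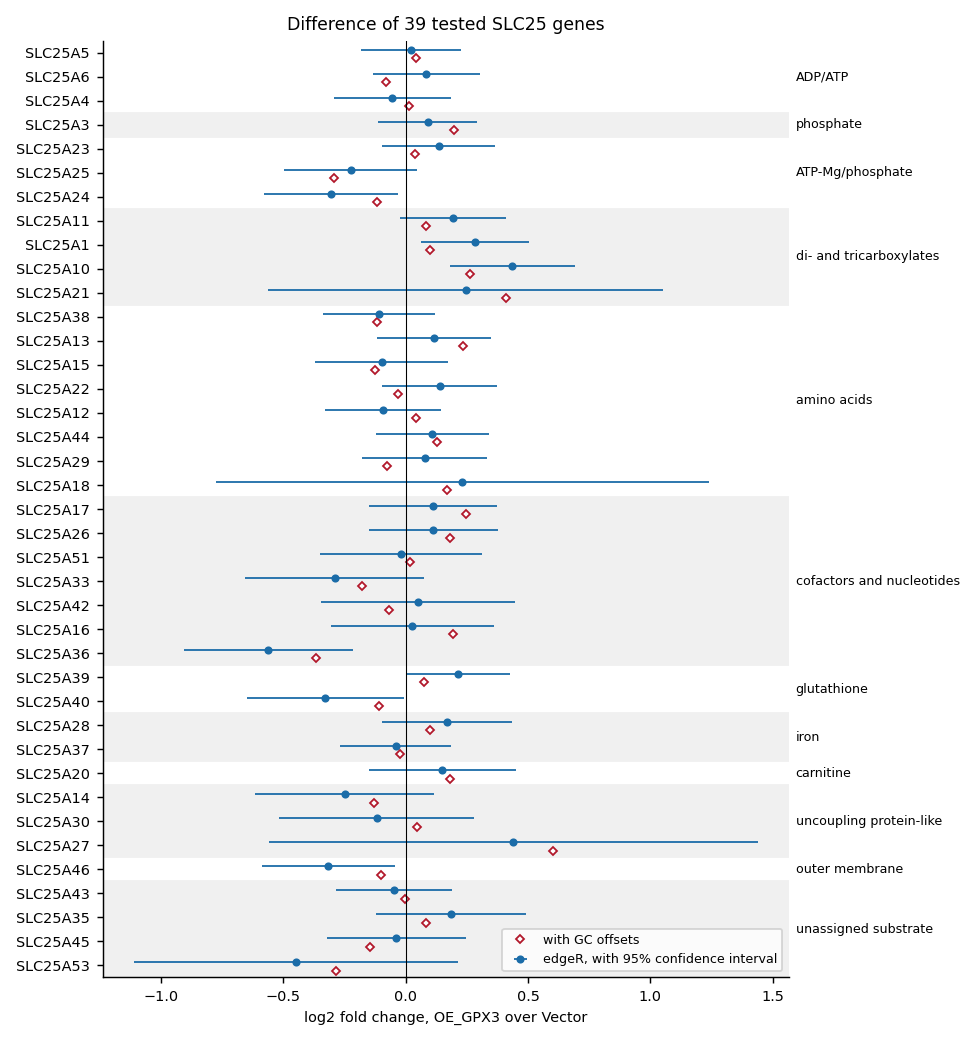
Log2 fold change of OE_GPX3 over Vector for 39 of the 40 tested SLC25 genes, grouped by substrate, with 95% confidence intervals (blue) and the value after correction for GC content (open red diamonds). Most intervals include 0. SLC25A36 has the lowest value, -0.56, and the highest are SLC25A10 and the sparsely counted SLC25A27, both at 0.44.

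The values of the 7 genes with an unadjusted p under 0.05 are given in CPM, which are counts relative to a TMM-scaled library total of 1e+06, the scale on which they were tested. SLC25A10, the dicarboxylate carrier, had 30.5, 33.2 and 36.3 CPM in Vector and 36.4, 48.6 and 50.5 in OE_GPX3. The groups did not overlap, but the highest Vector library and the lowest OE_GPX3 library lay next to each other. The log2 fold change was 0.44 (95% confidence interval 0.18 to 0.69, edgeR unadjusted p = 0.0013, adjusted p = 0.118). Without OE_GPX3 replicate 1 it was 0.57 with an adjusted p of 0.00122 by edgeR, where 4.47% of all genes were called. Over all alternatives the adjusted p of SLC25A10 ran from 0.00122 to 0.647. Of the exon bases of SLC25A10, 46.6% also belong to AC139530.2 on the same strand, which had 0 counts in every library.

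SLC25A1, the citrate carrier, had 96.8, 86.9 and 113 CPM in Vector and 112, 129 and 119 in OE_GPX3. Vector replicate 3 lay just above the lowest OE_GPX3 library, so the groups overlapped. The log2 fold change was 0.28 (95% confidence interval 0.06 to 0.50, edgeR adjusted p = 0.236), and without OE_GPX3 replicate 1 it was 0.33 with an adjusted p of 0.0464, the lowest over the alternatives, which reached 0.762. SLC25A39, the glutathione importer, had 295, 324 and 341 CPM in Vector and 334, 384 and 395 in OE_GPX3, with overlap, and a log2 fold change of 0.21 (edgeR adjusted p = 0.334). Its relative SLC25A40, linked to the same import, had the opposite sign. It had 11.9, 10.0 and 12.3 CPM in Vector and 9.52, 9.20 and 8.49 in OE_GPX3, without overlap, and a log2 fold change of -0.33 (edgeR adjusted p = 0.333). The coding sequences of SLC25A39 and SLC25A40 are 62.5% identical, and SLC25A40 made up 2.74%, 2.10% and 2.44% of their summed FPKM in Vector and 1.94%, 1.64% and 1.47% in OE_GPX3.

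SLC25A36, which carries pyrimidine nucleotides, had 12.7, 13.0 and 8.67 CPM in Vector and 7.23, 8.14 and 8.03 in OE_GPX3. The groups did not overlap, and Vector replicate 3 stood near the OE_GPX3 libraries. The log2 fold change was -0.56 (95% confidence interval -0.91 to -0.22, edgeR unadjusted p = 0.00214, adjusted p = 0.135), the lowest of the 40. The other pyrimidine nucleotide carrier, SLC25A33, had a log2 fold change of -0.29 with overlapping groups. SLC25A24, a calcium-regulated ATP-Mg/phosphate exchanger, had 24.2, 23.1 and 19.7 CPM in Vector and 18.5, 19.1 and 16.7 in OE_GPX3. Its groups did not overlap, and the log2 fold change was -0.31 (edgeR adjusted p = 0.296). SLC25A46, an outer membrane member of the family that acts in mitochondrial fission and lipid handling rather than as a known carrier, had 22.7, 20.8 and 24.8 CPM in Vector and 17.6, 19.9 and 17.2 in OE_GPX3. Its groups did not overlap either, and the log2 fold change was -0.32 (edgeR adjusted p = 0.277).

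**Figure D3:**
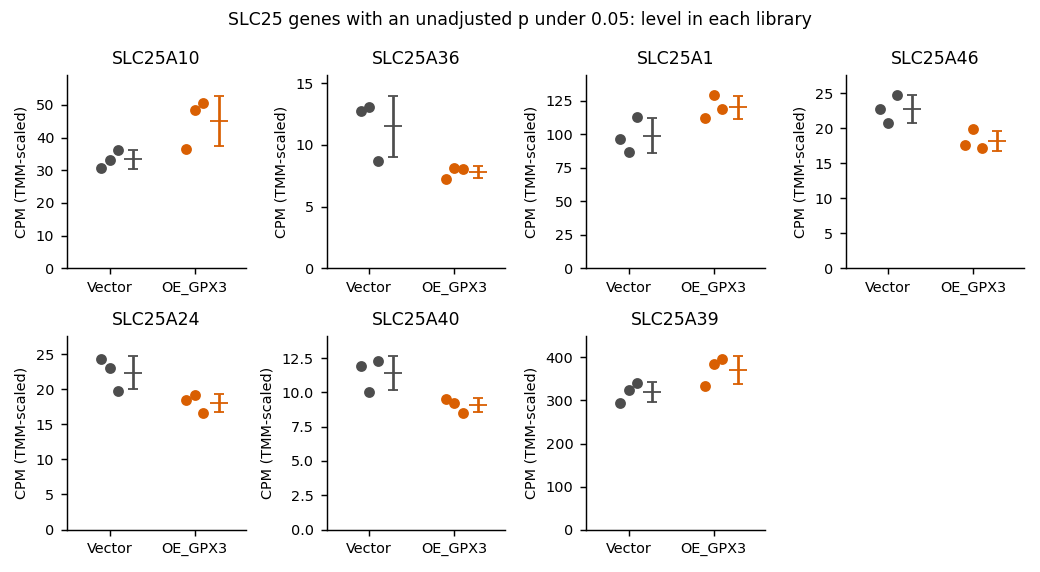
CPM in each library for the 7 SLC25 genes with an unadjusted p under 0.05, 1 panel per gene, with points for libraries and bars for the mean ± SD of each group, on axes that start at 0. SLC25A10, SLC25A1 and SLC25A39 have the higher mean in OE_GPX3, and SLC25A36, SLC25A24, SLC25A46 and SLC25A40 in Vector.

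The groups also did not overlap for SLC25A22, a glutamate carrier with a log2 fold change of 0.14, and for SLC25A25, the third calcium-regulated ATP-Mg/phosphate exchanger, with -0.22. For SLC25A22 the highest Vector library, at 40.22 CPM, and the lowest OE_GPX3 library, at 40.27 CPM, nearly met. The most abundant carriers differed little. The log2 fold change was 0.02 for SLC25A5 (95% confidence interval -0.18 to 0.22), 0.08 for SLC25A6 (-0.14 to 0.30) and 0.09 for SLC25A3 (-0.11 to 0.29). It was 0.19 for SLC25A11, 0.17 for SLC25A28, 0.15 for SLC25A20, 0.13 for SLC25A23, 0.11 for SLC25A17, -0.05 for SLC25A43 and -0.11 for SLC25A38. SLC25A14, an uncoupling protein-like carrier, had 6.59, 9.40 and 7.998 CPM in Vector and 5.94, 7.55 and 6.74 in OE_GPX3, with overlap and a log2 fold change of -0.25.

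The following carriers of cofactors had overlapping groups. SLC25A26, which imports the methyl donor S-adenosylmethionine, had 4.41 ± 0.259 FPKM in Vector (SD, n = 3) and a log2 fold change of 0.11. SLC25A42 and SLC25A16, both linked to coenzyme A in the matrix, had 1.28 ± 0.209 and 1.21 ± 0.0757 FPKM in Vector (SD, n = 3) and log2 fold changes of 0.05 and 0.03. The NAD+ importer SLC25A51 was at -0.02.

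Among the other amino acid carriers, SLC25A44, which carries branched-chain amino acids, had 5.28 ± 0.079 FPKM in Vector and 5.76 ± 0.379 in OE_GPX3 (SD, n = 3), with a log2 fold change of 0.11. SLC25A29, for basic amino acids, had 3.84 ± 0.567 FPKM in Vector (SD, n = 3) and 0.08. The log2 fold change was 0.11 for citrin, SLC25A13, and -0.09 for aralar, SLC25A12, so the aspartate/glutamate exchangers differed in sign, with both 95% confidence intervals including 0 (-0.12 to 0.35 and -0.33 to 0.14). SLC25A15 was at -0.10.

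The lowest genes tested had wide intervals. SLC25A27, an uncoupling protein-like carrier, had 7, 18 and 5 counts in Vector and 19, 8 and 11 in OE_GPX3, and a log2 fold change of 0.44 (95% confidence interval -0.56 to 1.44). SLC25A21, the oxoadipate carrier, had 19, 18 and 10 counts against 18, 16 and 18, and SLC25A53, of unsettled substrate, had 41, 28 and 28 against 26, 24 and 17. Their log2 fold changes were 0.25 (-0.56 to 1.05) and -0.45 (-1.11 to 0.22), and the groups overlapped for all 3. SLC25A35 and SLC25A45, also of unsettled substrate, had 3.06 ± 0.177 and 2.14 ± 0.0691 FPKM in Vector (SD, n = 3) and log2 fold changes of 0.19 and -0.04. Of the exon bases of SLC25A35, 33.2% also belong to RANGRF on the other strand.

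By substrate, all 4 di- and tricarboxylate carriers had a log2 fold change above 0, with a median of 0.26, and none was called. Their summed FPKM was 8.81% ± 0.351 of the family in Vector, against 10.0% ± 0.260 in OE_GPX3 (SD, n = 3 each), without overlap. The glutathione importers held 7.19% ± 0.160 in Vector, against 7.86% ± 0.223 in OE_GPX3 (SD, n = 3 each), also without overlap, and nearly all of this was SLC25A39. The ADP/ATP carriers held 65.0% ± 0.492 in Vector, against 63.7% ± 0.407 in OE_GPX3 (SD, n = 3 each), again without overlap. SLC25A46, the outer membrane member, was likewise lower in OE_GPX3 in every library, and the other 8 of the 12 substrate groups overlapped. Of all single genes tested, 18.5% had groups that did not overlap. Shares of 1 total are bound to each other, and no test was made, since an exact permutation test of 3 against 3 libraries cannot give a two-sided p below 0.10. The summed FPKM of the family was 1278 ± 74.0 in Vector, against 1362 ± 100.4 in OE_GPX3 (SD, n = 3 each), a difference within the spread of the libraries.

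**Figure D4:**
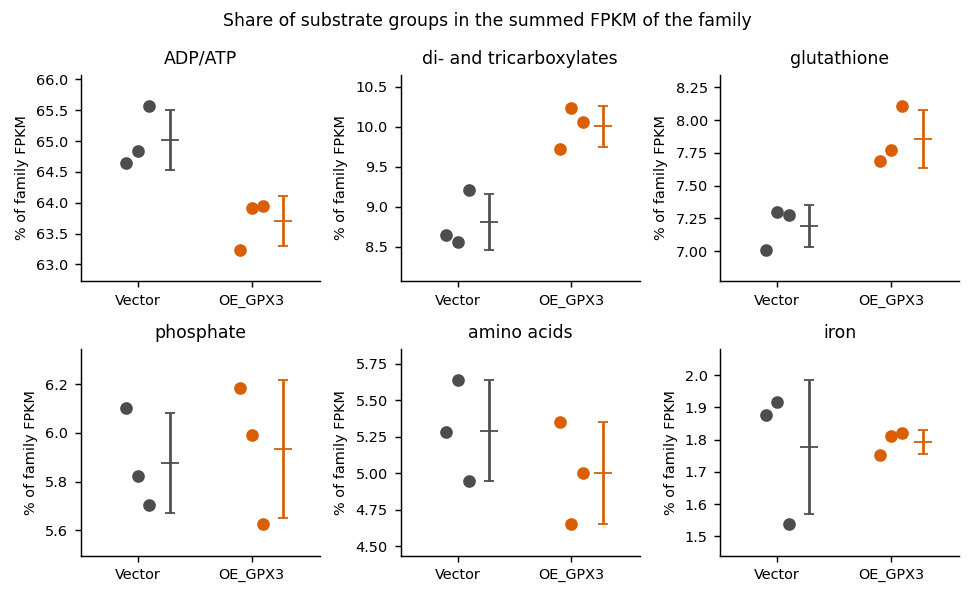
Percent of the summed FPKM of all SLC25 genes held by 6 of the 12 substrate groups, 1 point per library with bars for the mean ± SD, in separate panels whose vertical axes do not start at 0. The di- and tricarboxylate and glutathione carriers lie higher in OE_GPX3 and the ADP/ATP carriers lower, each without overlap.

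Within the calcium-regulated exchangers the signs were mixed. SLC25A23 made up 64.2%, 58.2% and 64.9% of the summed FPKM of the ATP-Mg/phosphate carriers in Vector and 68.8%, 68.2% and 69.1% in OE_GPX3, which did not overlap, while SLC25A24 and SLC25A25 had negative log2 fold changes. Within the ADP/ATP carriers the share of SLC25A5 overlapped, at 58.0%, 58.8% and 56.4% in Vector and 59.5%, 56.1% and 54.8% in OE_GPX3. Of the 8 amino acid carriers tested 5 were above 0 and 3 below, and of the 8 cofactor and nucleotide carriers tested 5 were above and 3 below, with medians of 0.09 and 0.02.

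The log2 fold changes of SLC25 genes moved with GC content, the share of G and C in a gene's annotated transcripts. Over the 40 genes the correlation was 0.55 (Spearman 0.53), and over all genes tested it was 0.44. These correlations are across genes, which share the same 6 libraries and are not replicates. SLC25A10, SLC25A1 and SLC25A39 had 64.9%, 66.2% and 62.0% GC, and SLC25A36, SLC25A24, SLC25A46 and SLC25A40 had 39.9%, 40.01%, 36.0% and 36.0%. Of the 20 SLC25 genes richer in GC 15 had a log2 fold change above 0, and of the 20 poorer in GC 8 had, with 47.4% of all genes above 0. When each library was corrected for a smooth trend of its counts with GC, the correlation over the 40 genes was -0.02. The correction removes such a trend by design, so this value is not a test of it. With the correction 0 SLC25 genes were called by edgeR (0.0277% of all genes were), and 6 had an unadjusted p under 0.05 (9.45% of all genes did). After it 18 of the 40 were below 0, against 46.2% of all genes.

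With that correction the log2 fold change was 0.26 for SLC25A10 (95% confidence interval 0.04 to 0.49), 0.10 for SLC25A1 and 0.07 for SLC25A39. It was -0.37 for SLC25A36 (95% confidence interval -0.69 to -0.04), -0.12 for SLC25A24, -0.10 for SLC25A46 and -0.11 for SLC25A40. So all 7 kept their sign and 5 of them had an interval that included 0. The 6 genes with an unadjusted p under 0.05 after the correction were SLC25A10, SLC25A36, SLC25A25 (-0.29), SLC25A13 (0.24), SLC25A17 (0.25) and SLC25A3 (0.20). SLC25A6 went from 0.08 to -0.08 and SLC25A22 from 0.14 to -0.03, and in all 9 of the 40 genes changed sign. The di- and tricarboxylate carriers remained above 0 in 4 of 4, with a median of 0.18. Their highest value, 0.41 (95% confidence interval -0.37 to 1.19), was that of the sparsely counted SLC25A21. SLC25A11 was at 0.08 (-0.10 to 0.27). Whether GC content plays a part in the differences between the groups was not tested, since the correction removes a trend with GC whatever its source.

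**Figure D5:**
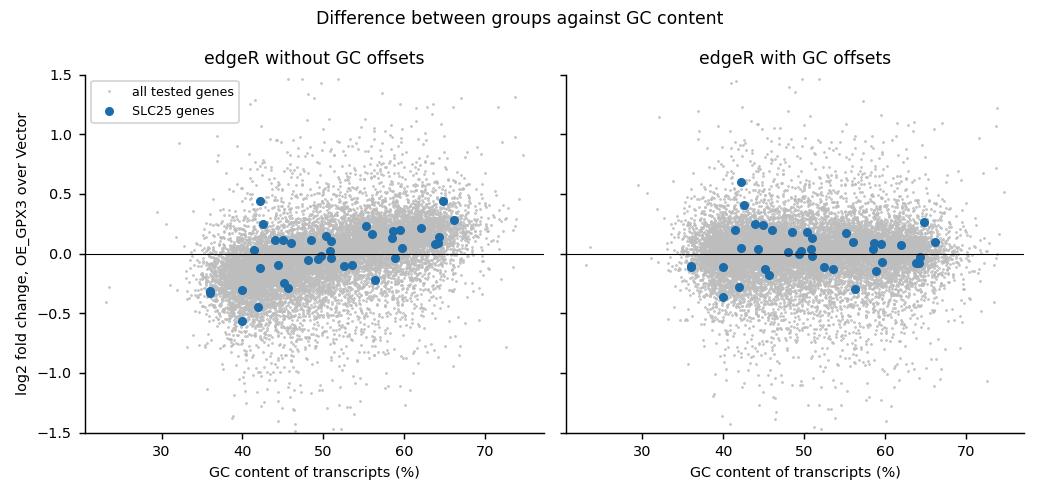
Log2 fold change of OE_GPX3 over Vector against GC content in percent, for all genes tested (grey) and 39 SLC25 genes (blue), before and after the GC correction. The vertical axis ends at 1.5 in both directions, so 19 genes, GPX3 among them and no SLC25 gene, are not drawn in each panel. The upward slope seen before the correction is absent after it, since the correction removes that trend by design.

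Genes that work with the carriers were read from lists fixed for this purpose, and 0 of them were called by edgeR in either direction. The relatives of the family with other names, the uncoupling proteins UCP1, UCP2 and UCP3 and the carrier-like MTCH1 and MTCH2, had 4 of 5 genes tested and all 4 above 0, with a median log2 fold change of 0.14. UCP2 had 111, 87.4 and 111 CPM in Vector and 114, 116 and 115 in OE_GPX3, without overlap (log2 fold change 0.16, edgeR adjusted p = 0.508, and 0.07 after the GC correction). Carriers are inserted by the TIM22 pathway after passing the TOM pore. The median log2 fold change of its 12 genes was 0.0021, and 0.069 after the GC correction. Before it 6 were above 0 and 6 below, and 1 had an unadjusted p under 0.05, against 14.6% of all genes. It was TOMM40, the pore of the outer membrane, at 0.22 (edgeR adjusted p = 0.335) and at 0.09 after the GC correction. TIMM22, the channel that inserts the carriers, had 48.6, 56.4 and 56.8 CPM in Vector and 57.2, 67.4 and 63.6 in OE_GPX3, a log2 fold change of 0.22 both before (edgeR adjusted p = 0.364) and after the correction.

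Among 17 other mitochondrial transporters 10 were above 0 and 7 below, with 47.4% of all genes above 0. Their median log2 fold change was 0.03, and 0.11 after the GC correction, against -0.02 and 0.02 over all genes. An unadjusted p under 0.05 was found for 2 (11.8%), no more than the 14.6% of all genes. MICU2, a gatekeeper of the calcium uniporter, had 15.9, 15.3 and 15.2 CPM in Vector and 11.8, 12.5 and 7.91 in OE_GPX3 (log2 fold change -0.52, edgeR adjusted p = 0.135, and -0.33 after the GC correction). ABCB8, a mitochondrial ABC transporter, was at 0.25 (edgeR adjusted p = 0.297) and at 0.12 after it. Of 30 enzymes that use the carried substrates 16 were above 0 and 14 below, with a median of 0.02, and 0.04 after the GC correction. An unadjusted p under 0.05 was found for 4 (13.3%), again no more than the 14.6% of all genes. MTHFD2, of mitochondrial folate metabolism, had 163, 287 and 194 CPM in Vector and 113, 147 and 155 in OE_GPX3, without overlap (log2 fold change -0.64, edgeR adjusted p = 0.288, and -0.48 after the GC correction). MTHFD1L of the same pathway was at -0.24, IDH2, which makes matrix NADPH, at 0.22, and the carnitine acetyltransferase CRAT at 0.23. After the correction they were at -0.20, 0.13 and 0.10.

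Library totals ran from 15831693 to 18751815 counts, and the mitochondrial chromosome held 6.19% to 7.52% of them, with every OE_GPX3 library below every Vector library. Its part in the values above was not tested. All 10 markers of A549 and epithelial cells were tested, with a summed level of 40118 to 43058 CPM in Vector and 44240 to 52535 in OE_GPX3. An edgeR unadjusted p under 0.05 was found for 3 of them (30.0%), KRT8, KRT18 and KRT19, against 14.6% of all genes. Their log2 fold changes were 0.36, 0.32 and 0.46, and none was called. Of 10 markers of blood, endothelial and fibroblast cells 2 were tested, CD14 and COL1A1. The summed level of the 10 was 16.6 to 21.3 CPM in Vector and 20.7 to 24.5 in OE_GPX3. Most of it was CD14, with means of 14.1 CPM in Vector and 16.4 in OE_GPX3. In bulk RNA, fewer cells with a transcript and less of it per cell cannot be told apart. Exon bases were shared with another gene by 21 of the 48 SLC25 genes, over 10% of them by 12, and no source used here gives the use of strand in counting. Of 40 annotated SLC25 pseudogenes 36 were at 0 in all libraries, and together they had 11 counts.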

How the data were processed

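The authors deposited whole-number counts per gene and library, with no normalization that the values show, and FPKM values. Per the submitters' processing notes the genome build was hg38. Aligner, counter and use of strand: not given in the sources used here. In each library the deposited FPKM are the counts divided by gene length and by a library constant, which lay -4.52% to 4.90% from the library's total. The labels' protocols describe a small RNA library, whereas the table holds counts of long genes. Gene positions of all 58735 genes match GENCODE release 29.

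The genes were named and the lists drawn up with earlier results of these data known. Samples were grouped by title. Low counts were removed with filterByExpr (minimum 10, total 15), and the groups were compared by edgeR 4.0.16 (R 4.3.3, quasi-likelihood, robust, TMM, two-sided). The biological coefficient of variation was 0.110. DESeq2 1.42.0, limma 3.58.1 on log2(FPKM + 1) and log2(FPKM + 0.1), other scaling and filters, GC offsets (smoothing spline with 5 degrees of freedom per library), a replicate block and leaving out each library were alternatives. On data simulated for this comparison with 14321 genes, 53 of 67 genes changed 1.5-fold, 67 of 67 changed 2-fold and 66 of 66 changed 4-fold were called, with 12 false among 198 calls. The changed genes were drawn from those above 5 CPM, and all genes had the same coefficient of variation, 0.11, without a GC trend.

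Values in all libraries are given for SLC25 genes by a rule: the 8 highest mean FPKM in Vector, any adjusted or unadjusted p under 0.05, the 4 largest log2 fold changes in each direction at a mean of at least 5 CPM, and the highest of each substrate group. Sequences were read from GENCODE transcripts (longest complete coding sequence of a gene) with Biopython 1.88, and identity is from global alignment of coding bases. The values of 1 tested SLC25 gene are not reported here, and it enters only counts, sums and correlations.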

Additional observations from a re-analysis of the deposited data

How the results depend on the processing

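Over all genes 38 were called, against 68 with total counts alone, 115 by DESeq2, 129 with no low-count filter, 10 and 11 by limma on log2(FPKM + 1) and log2(FPKM + 0.1), 4 with GC offsets and 1 to 657 when a library was left out. Of the SLC25 genes 0 were called in these settings, except when a library was left out, where 0 to 2 were: SLC25A10 and SLC25A1 without OE_GPX3 replicate 1. With the replicate number as a block, 231 genes were called, 1 of them SLC25A10 (log2 fold change 0.43, adjusted p = 0.0365 by edgeR). With GC offsets as well as the block, 55 were called and 0 of them were SLC25 genes (SLC25A10 0.26, adjusted p = 0.278). Deviations of same-numbered libraries had correlations of 0.19, 0.01 and 0.11, and those of the other pairs ran from -0.15 to 0.05. These values cannot tell whether same-numbered libraries share a culture or batch, and the main test had no block. Each library correlated best with its own number, other than replicate 2 of both groups. Unadjusted p values under 0.05 were found for 7 SLC25 genes and, over the alternatives, for 2 to 9. Total counts alone shifted the median log2 fold change of all genes to -0.08.

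Of 322 values of 18 SLC25 genes 311 kept direction and side of the threshold, 3 passed it and 8 changed sign, all near 0. SLC25A5 had -0.0051 with upper-quartile factors, -0.040 with total counts alone and, with a library left out, -0.016 (without Vector replicate 1) to 0.063. SLC25A6 had -0.081 with GC offsets and -0.086 with the replicate block as well. SLC25A43 had 0.00078 with replicate block and GC offsets and -0.12 to 0.011 with a library left out, above 0 without Vector replicate 1 or OE_GPX3 replicate 3. At these depths a gene of few counts, such as SLC25A27, had an interval too wide to place it (log2 fold change 0.44, 95% confidence interval -0.56 to 1.44). The cause of these shifts was not tested.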
